A study of Mus musculus with 6 samples.

Results

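The genes described here encode plasma membrane and lysosomal carriers of amino acids. They were picked by a rule on gene names, as the protein-coding members of the Slc1a, Slc3a, Slc7a, Slc36a, Slc38a and Slc43a families, with Slc7a11 left out, which gave 42 of the 56884 genes in the deposited table (21633 of them protein-coding). One of the 42, Slc7a6os, is no transporter and carries its name because it lies opposite Slc7a6. The other 41 are transporters or subunits of them, and are called transporters here. RNA sequencing had measured 6 libraries of cells that the labels give as mouse neutrophils, sorted from bone marrow by the surface markers CD101 and Ly6G of mature cells. In 3 libraries the cells had been cultured outside the animal with DKK1 (Dickkopf-1, a secreted protein that blocks Wnt signals), and in the other 3, called control, without it. No strain, genotype or age of the mice, dose of DKK1 or length of culture is given in the sources used here. Nor do the labels say whether libraries of 1 group stem from different mice or dishes. The p-values are therefore set against the spread among these libraries alone, which may be technical.

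Amino acids cross membranes through carriers that differ in their substrates and in what drives them. Members of the Slc7a light chain group reach the cell surface only when joined to a heavy chain, Slc3a2 (CD98hc, also known as 4F2hc) or Slc3a1, and exchange one amino acid for another. Slc38a carriers bring in glutamine and other neutral amino acids together with sodium. Slc36a carriers such as Slc36a1 move small amino acids with protons, often across the lysosomal membrane. Slc43a carriers let neutral amino acids pass down their gradient. In leukocytes such carriers are known to be raised on activation, and their supply of leucine, arginine and glutamine feeds the kinase complex mTORC1. A shortage of amino acids instead switches on the stress factor ATF4.

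Recovered totals were 5188116 to 9851961 reads per library. The lowest was that of DKK1 library 2, which also stood further from its group than any other library. Per degree of freedom, its chi-square against DKK1 libraries 1 and 3 was 13.6 and 12.5, where those 2 gave 2.99 against each other and pairs of control libraries 2.19 to 2.26. The 14 neutrophil markers, which check the label of the cells, summed to normalized counts of 707300 to 732800 in the control libraries and 7269 to 8133 in the DKK1 libraries. Of these markers 13 fell and Camp did not pass the test, and none was at 0 reads in a whole group. With libraries scaled to equal total reads, 13 were called lower and 1 higher. The transcripts of both sorting markers were almost absent from the DKK1 libraries, with mean normalized counts of 5098 in control and 3.53 with DKK1 for Cd101 and of 1338 and 5.96 for Ly6g. Of 14 markers of monocytes and macrophages, 6 fell, 4 rose and 4 were not past the threshold (sums of 51200 to 53200 in control and 56380 to 64570 with DKK1, with C1qa at 0 in the latter). That balance turned to 6 higher and 3 lower with libraries scaled to equal total reads, and was 4 and 4 without DKK1 library 2. Of 4 osteoclast markers tested 2 rose (Acp5 and Ctsk) and 2 fell, while Ocstamp and Dcstamp were at 0 in both groups. Of 6 B cell markers 5 were called lower (sums of 1476 to 1595 and 41.2 to 112), but 2 at equal total reads and 2 without DKK1 library 2. Both T and NK cell markers tested fell (sums of 45.3 to 79.3 and 0 to 2.98). Of 7 erythroid markers 6 were tested and 4 called lower (sums of 1592 to 1738 and 300.5 to 1496), against 1 at equal total reads and 6 without DKK1 library 2. Of 7 basophil, mast cell and eosinophil markers 3 rose and 1 fell (sums of 325 to 331 and 102 to 273), and of 4 stromal and endothelial markers 2 were called higher and 2 lower (sums of 307.5 to 359.7 and 151 to 217), against 2 and 1 at equal total reads and 1 and 2 without DKK1 library 2. The part of these shifts in the results on transporters was not tested, and in bulk RNA fewer cells of a type and less RNA per cell cannot be told apart.

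Most transporters that could be tested rose with DKK1. A gene was tested when 3 or more of the 6 libraries had a normalized count of 1 or above, with limma on log2(normalized count + 1) and Benjamini-Hochberg adjustment over all 16265 such genes at a threshold of 0.05. Of the 42 genes 25 were tested, of which 19 rose, 2 fell (Slc38a9 and Slc43a1) and 4 did not pass (Slc1a5, Slc3a1, Slc7a3 and Slc38a2). The 76% of tested members that rose stood against 35.1% of all tested genes, and the 8% that fell against 36.1%, with 71.2% of all tested genes past the threshold in either direction. One of the 25, Slc7a15, passed the filter only through its DKK1 libraries and so had to differ. The median log2 change of the 25 was 2.24, with single DKK1 libraries against the control mean at 2.07, 2.00 and 2.37, beside a median of -0.03 over all tested genes. With libraries scaled to equal total reads in place of the authors' factors, the median of all genes moved up by 0.47 and that of the members to 2.77. The calls were then 43.7% higher and 29.2% lower over all genes, and 20 higher and 1 lower (Slc43a1) among the members. The count of members that fell was 1 without control library 1 or DKK1 library 1 (Slc43a1 each time) and 0 without control library 3, where limma gave Slc43a1 alone at an unadjusted p under 0.05. Values of the 2 groups did not overlap for 20 of the 25 members, against 73.9% of all tested genes.

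The other 17 members did not enter the test. No read was found in any library for 10 of them: the light chains Slc7a9, Slc7a10, Slc7a12 and Slc7a13, the cationic family member Slc7a4, the glutamate carriers Slc1a6 and Slc1a7, and Slc38a3, Slc38a8 and Slc38a11. The remaining 7 (Slc1a1, Slc1a3, Slc1a4, Slc7a14, Slc36a2, Slc38a4 and Slc38a5) had 1 to 6 reads over all 6 libraries. Slc36a2 had 5 reads in control and 0 with DKK1.

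**Figure D1:**
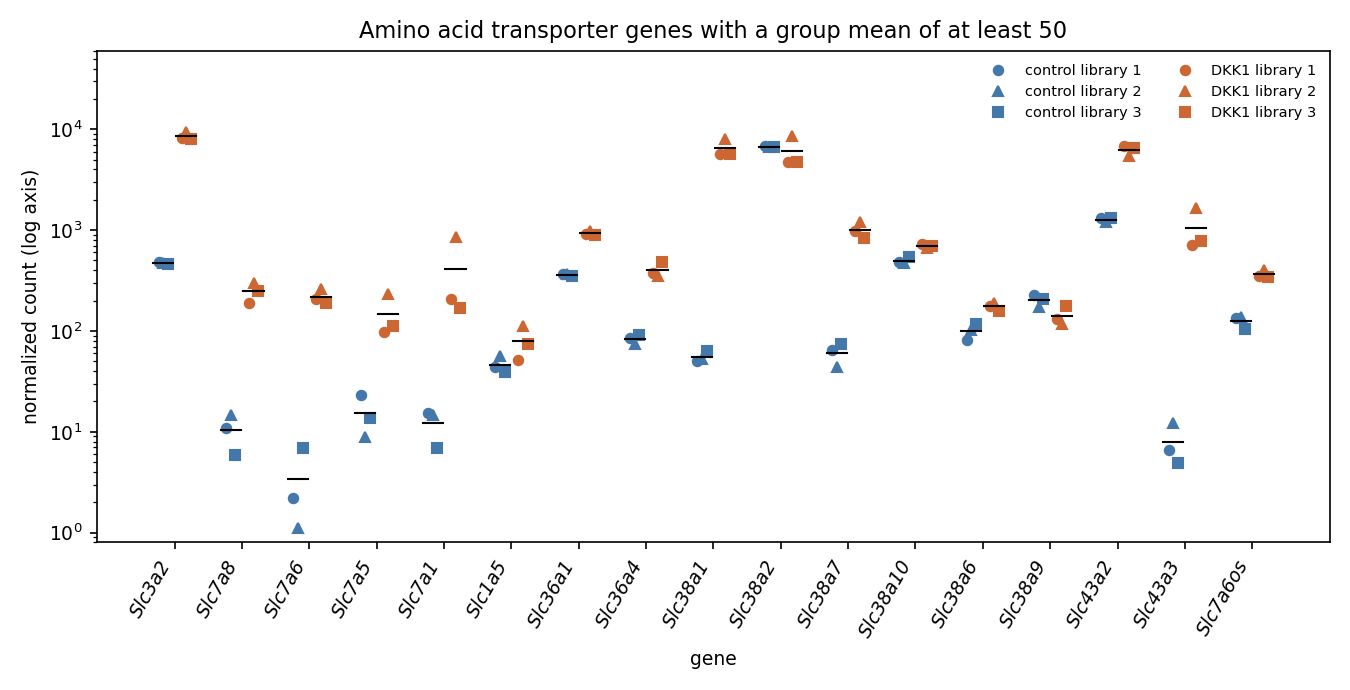
Normalized counts (log axis) of the 17 genes of the set with a mean of at least 50 in either group, control in blue and DKK1 in orange, with a symbol per library and a bar at each group's mean. Slc38a1 went from 50.5 to 63.1 in control to 5635 to 7986 with DKK1, whereas the Slc38a2 libraries of the 2 groups overlapped.

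Promoter sequence is shown for 3 members that rose, because they hold motifs of factors known to act on amino acid and lysosomal genes. The amino acid response element bound by C/EBP and ATF factors was searched as TGATGNAA, the E-box of the kind bound by TFEB and TFE3 as TCACGTGA, and the general E-box as CACGTG, which TCACGTGA contains. Both strands were searched in windows of 250 bases before to 50 bases after each RefSeq start (GRCm38.p6), which were given for 31 members with 42 promoters. The first motif was in 3 of the 42 (7.14%, Slc1a4 and Slc7a7) against 3.97% of all 32851 promoters (2 overlapping Slc7a7 windows share a match, the one at -1), the second in 1 (2.38%, Slc36a1) against 0.974%, and the third in 7 (16.7%) against 7.15%. Those 7 belong to Slc1a6, Slc1a7, Slc7a14, Slc36a1, Slc38a5, Slc38a7 and Slc43a1. Of these Slc36a1 and Slc38a7 rose, Slc43a1 fell and the others did not enter the test, nor did Slc1a4. Some windows of Slc7a7 held no response element. Capitals mark the motifs. That of Slc36a1 (chr11:55204090-55204389, plus strand) has a general E-box starting at -31 and the longer one at -4 from the start site. In Slc38a7 (chr8:95853442-95853741, minus strand) a general E-box starts at -34. In Slc7a7 (chr14:54417895-54418194, minus strand) the response element starts at -141 and at -1. A match is a description of these letters and shows no binding.
Slc36a1: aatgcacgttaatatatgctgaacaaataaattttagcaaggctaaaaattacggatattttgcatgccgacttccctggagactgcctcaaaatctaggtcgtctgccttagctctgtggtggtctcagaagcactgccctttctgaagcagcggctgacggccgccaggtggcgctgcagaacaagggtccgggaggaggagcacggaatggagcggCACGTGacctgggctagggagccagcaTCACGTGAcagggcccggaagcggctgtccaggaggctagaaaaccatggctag
Slc38a7: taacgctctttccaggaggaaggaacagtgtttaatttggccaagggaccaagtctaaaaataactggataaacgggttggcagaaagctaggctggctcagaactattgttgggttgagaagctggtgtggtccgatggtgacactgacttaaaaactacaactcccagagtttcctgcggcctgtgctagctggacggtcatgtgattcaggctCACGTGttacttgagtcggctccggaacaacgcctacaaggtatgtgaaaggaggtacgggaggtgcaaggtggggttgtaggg
Slc7a7: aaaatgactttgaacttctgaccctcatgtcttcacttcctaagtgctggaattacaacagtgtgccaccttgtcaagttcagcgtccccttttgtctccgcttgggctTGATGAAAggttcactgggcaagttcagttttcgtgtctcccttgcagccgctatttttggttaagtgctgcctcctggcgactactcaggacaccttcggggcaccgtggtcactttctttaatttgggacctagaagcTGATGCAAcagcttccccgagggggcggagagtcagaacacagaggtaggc

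The heavy chain Slc3a2 lies at GRCm38 chr19:8706882-8723369 on the minus strand, with 10 exons in its longest transcript in GENCODE M21. It had the smallest limma adjusted p of the 25 tested genes of the set, though not the largest change. Its normalized counts were 483, 468 and 466 in control (libraries 1 to 3, the order used throughout) and 8107, 9476 and 8022 with DKK1. The groups lay far apart, and every DKK1 library was above every control library. Means were 472 ± 9.38 and 8535 ± 816 (SD, n = 3 each), an 18.1-fold rise (log2 change 4.17, SE 0.07, limma adjusted p = 2.26e-10). Slc3a1, the heavy chain of the renal cystine carrier, had means of only 3.85 and 8.79 and did not pass (log2 change 0.91, SE 0.54, limma adjusted p = 0.164). Exons of Slc3a1 share 601 bases with Prepl on the opposite strand, and the strandedness of the libraries is not given in the sources used here, so its reads may be partly those of Prepl.

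Of the 9 light chain genes, 5 were tested, and the 4 with reads in both groups rose. Slc7a8 (LAT2, an exchanger of neutral amino acids) had normalized counts of 11.0, 14.5 and 5.91 in control and 190.1, 301 and 251 with DKK1. All DKK1 libraries were higher, with a 23.6-fold rise of the mean (log2 change 4.49, SE 0.32, limma adjusted p = 1.55e-06). Slc7a6 (y+LAT2, which exchanges cationic for neutral amino acids) was close to 0 in control, at 2.20, 1.12 and 6.90, and reached 206, 261 and 189 with DKK1. That is a 64.3-fold rise, which rests on few control reads (log2 change 5.85, SE 0.46, limma adjusted p = 2.77e-06). Slc7a5 (LAT1, the main carrier of leucine and other large neutral amino acids into activated leukocytes) had 23.1, 8.94 and 13.8 in control and 97.6, 235 and 111 with DKK1. Its groups did not overlap, and DKK1 library 2 was the highest. Its mean rose 9.69-fold (log2 change 3.18, SE 0.41, limma adjusted p = 9.69e-05).

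The 2 other light chains tested had the lowest levels per kb of the 5 with DKK1, 16.9 for Slc7a7 and 6.02 for Slc7a15. Slc7a7 (y+LAT1, also a cationic-for-neutral exchanger) rose 2.45-fold, from a mean normalized count of 15.7 ± 6.40 to 38.4 ± 7.06 (SD, n = 3 each; limma adjusted p = 0.00964). Its exons share 232 bases with Oxa1l on the opposite strand. Slc7a15, a light chain with a preference for aromatic amino acids, had 0 reads in all 3 control libraries and 38 reads over the DKK1 libraries, where its normalized counts were 11.2, 11.0 and 12.2. Set against a floor of 3 reads over the control group, it was at least 10.8-fold higher.

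Per kilobase of transcript, the heavy chain exceeded the sum of the light chains Slc7a5 to Slc7a8 in every library. The level of Slc3a2 was 172, 166 and 166 normalized counts per kb in control and 2882, 3368 and 2852 with DKK1, and these 4 light chains summed to 17.1, 10.3 and 16.7 in control and 144, 225 and 164 with DKK1. Both sides of the pair were therefore higher in every DKK1 library. Their ratio was 10.1, 16.1 and 9.91 in control and 19.99, 14.96 and 17.4 with DKK1, and these ranges overlap. A further partner of Slc3a2 is Slc7a11, the cystine and glutamate exchanger, whose level per kb was 401 to 408 in control and 5426 to 5664 with DKK1. Slc7a11 stood at 2.35 to 2.46 times the level of Slc3a2 in control and at 1.61 to 1.99 times with DKK1, so that the ratio was lower in all 3 DKK1 libraries.

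Among the 5 cationic amino acid carriers of the Slc7a family, 3 were tested and 2 rose. Slc7a1 (CAT1, the widespread carrier of arginine and lysine) had normalized counts of 15.4, 14.5 and 6.90 in control and 209, 850.3 and 168 with DKK1. The groups did not overlap, but DKK1 library 2 was 4.51 times the mean of the other 2 DKK1 libraries. The mean rose 33.4-fold (log2 change 4.63, SE 0.57, limma adjusted p = 7.51e-05), and leaving out DKK1 library 2 gave a log2 change of 3.90 (limma adjusted p = 1.13e-05). Slc7a2 (CAT2, the inducible arginine carrier of macrophages) rose from a mean of 2.70 to 20.2 (log2 change 2.79, SE 0.73, limma adjusted p = 0.00742). The log2 change of Slc7a2 was 2.05 without control library 2 and 3.44 without control library 3. Slc7a3, with 1 read in control and 6 with DKK1, did not pass (limma adjusted p = 0.229), although it did without DKK1 library 3 (log2 change 1.67 in place of 0.99, limma adjusted p = 0.0453).

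Of the 7 Slc1a genes, which carry glutamate or small neutral amino acids, 2 were tested. Slc1a5 (ASCT2, a sodium-dependent exchanger of glutamine and other neutral amino acids) had 43.9, 55.9 and 39.4 in control and 51.4, 111 and 74.3 with DKK1. DKK1 library 1 lay within the control range, so the groups overlapped. The difference did not pass (means of 46.4 ± 8.50 and 79.0 ± 30.2, log2 change 0.70, SE 0.29, limma adjusted p = 0.056). It did pass in 5 of 16 alternative fits. Among these were the fit without DKK1 library 1 (log2 change 0.97, limma adjusted p = 0.013) and that at equal total reads (1.22, limma adjusted p = 0.00323). Slc1a2 (GLT-1, best known as the glutamate carrier of astrocytes) rose from 3 reads in control to 46 with DKK1. Its ratio of means was 14.4, with a 95% exact counting interval of 4.52 to 70.7 that covers counting error only (limma adjusted p = 0.00175).

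All 3 tested genes of the 4 Slc36a carriers rose. Slc36a1 (PAT1, which moves small amino acids out of the lysosome) had 370.1, 371 and 347 in control and 908, 974 and 901 with DKK1. Replicates lay close together, and the 2.56-fold rise of the mean was far larger than their spread (log2 change 1.35, SE 0.08, limma adjusted p = 2.55e-07). Slc36a4 (PAT4, a carrier of proline and tryptophan) had 85.7, 74.8 and 91.6 in control and 379, 353 and 478 with DKK1, again with no overlap. It rose 4.80-fold (log2 change 2.24, SE 0.15, limma adjusted p = 8.14e-07). Slc36a3 was called higher by a narrow margin, with means of 19.1 and 33.3 (log2 change 0.77, SE 0.31, limma adjusted p = 0.0465). That call was lost in 10 of 16 alternatives. It was lost when any one of control libraries 1, 2 and 3 or DKK1 libraries 2 and 3 was left out (limma adjusted p of 0.0583 to 0.13). It was also lost with edgeR (edgeR adjusted p = 0.0726), DESeq2 (DESeq2 adjusted p = 0.125), median-of-ratios scaling, no filter and the replicate block. Slc36a1, Slc36a2 and Slc36a3 lie side by side on chromosome 11, with gaps of 6.76 kb between Slc36a3 and Slc36a2 and 19.3 kb between Slc36a2 and Slc36a1.

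The sodium-coupled Slc38a family held both the most abundant of the 41 transporters per kb in control and one of their largest rises. Of its 11 genes 6 were tested, of which 4 rose, 1 fell and 1 did not pass. Slc38a1 (SNAT1, a glutamine importer; GRCm38 chr15:96571418-96642913, minus strand, 16 exons in its longest transcript) had normalized counts of 50.5, 52.5 and 63.1 in control and 5635, 7986 and 5742 with DKK1. The groups were about 2 orders of magnitude apart. The mean rose 117-fold, from 55.4 ± 6.74 to 6455 ± 1328 (SD, n = 3 each; log2 change 6.83, SE 0.15, limma adjusted p = 5.38e-10).

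Slc38a2 (SNAT2, the neutral amino acid importer known to be induced by amino acid shortage) lies 44.5 kb from Slc38a1 on the same strand (chr15:96687392-96699730) and did not show that rise. Its normalized counts were 6753, 6732 and 6714 in control and 4687, 8633 and 4766 with DKK1. DKK1 libraries 1 and 3 were below all control libraries and DKK1 library 2 was above them. The difference did not pass (means of 6733 ± 19.2 and 6029 ± 2256, log2 change -0.22, SE 0.21, limma adjusted p = 0.373). Without DKK1 library 2 Slc38a2 was called lower (log2 change -0.51, limma adjusted p = 5.86e-08), and with libraries scaled to equal total reads its change was 0.31 and did not pass (limma adjusted p = 0.152).

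The lysosomal members of the family moved in opposite directions. Slc38a7, a lysosomal exporter of glutamine and asparagine, had 64.8, 43.6 and 74.9 in control and 974, 1209 and 825 with DKK1. Its groups did not overlap, and the mean rose 16.4-fold (log2 change 4.03, SE 0.21, limma adjusted p = 1.55e-07). Slc38a9, the lysosomal carrier known as an arginine sensor for mTORC1, had 229.5, 172 and 208 in control and 130.4, 117 and 176 with DKK1. DKK1 library 3 reached into the control range. The drop of the mean was 1.44-fold (log2 -0.54, SE 0.18, limma adjusted p = 0.0233), and at equal total reads the change was -0.01 and did not pass (limma adjusted p = 0.972). The call of Slc38a9 was also lost without DKK1 library 1 or 2 or control library 1 or 3 (limma adjusted p of 0.056 to 0.0941).

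The remaining 2 genes rose by less than 2-fold. Slc38a10 had 481, 467 and 541 in control and 724, 672 and 696 with DKK1. That 1.41-fold rise exceeded the spread of both groups (log2 change 0.49, SE 0.08, limma adjusted p = 0.000573). Slc38a6 had 81.3, 102 and 117 in control and 177, 188 and 159 with DKK1. Here too the groups did not overlap, with a 1.75-fold rise (log2 change 0.81, SE 0.16, limma adjusted p = 0.0017). Exons of Slc38a9 and Slc38a10 overlap noncoding genes on the opposite strand by 182 and 367 bases, as do those of Slc1a2 and Slc7a2 by 189 and 635 bases.

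All 3 Slc43a genes were tested, and 2 rose while the third fell. Slc43a2 (LAT4, a facilitative carrier of branched-chain amino acids, methionine and phenylalanine; GRCm38 chr11:75531694-75577575, plus strand) had 1311, 1198 and 1306 in control and 6774, 5416 and 6573 with DKK1. The lowest DKK1 library was above the highest control library by several times, and the mean rose 4.92-fold (log2 change 2.29, SE 0.09, limma adjusted p = 2.18e-08). Its exons share 922 bases with the antisense gene Gm45606. Slc43a3, which is known as a carrier of purine nucleobases and so departs from the substrate of its family, had 6.59, 12.3 and 4.93 in control and 705, 1670.4 and 775 with DKK1. Every DKK1 library was far above control, and library 2 was 2.26 times the mean of the other 2. The mean rose 132-fold (log2 change 6.85, SE 0.38, limma adjusted p = 2.47e-07). Slc43a1 (LAT3, a facilitative leucine carrier) lies 73.0 kb from Slc43a3 on chromosome 2 and went the other way, with 19 reads in control and 4 with DKK1. The drop of the mean was 6.31-fold (log2 -1.91, SE 0.58, limma adjusted p = 0.0157), and without control library 3 it did not pass (limma adjusted p = 0.0646).

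Slc7a6os encodes no carrier and lies 2.01 kb from Slc7a6 on the opposite strand of chromosome 8. Its normalized counts were 133, 139 and 103 in control and 349.6, 398 and 343 with DKK1. The groups were apart, with a 2.91-fold rise (log2 change 1.54, SE 0.14, limma adjusted p = 7.47e-06), next to 64.3-fold for its neighbour Slc7a6. Without it, 18 of 24 tested transporters rose and 2 fell.

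**Figure D2:**
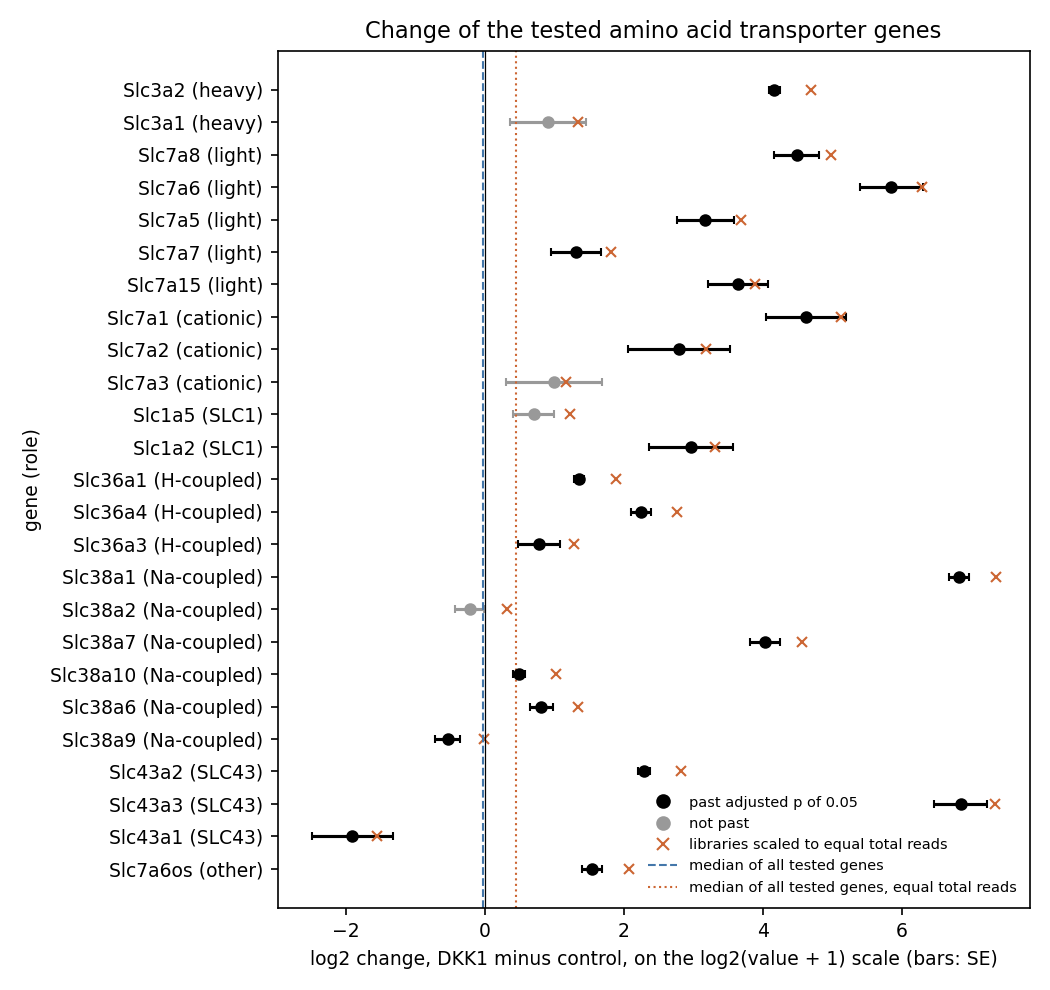
Log2 change (DKK1 minus control, on the log2(value + 1) scale) of the 25 tested genes, with SE bars from limma, black where past an adjusted p of 0.05 and grey where not, and crosses for libraries scaled to equal total reads. Changes ran from -1.91 for Slc43a1 to 6.85 for Slc43a3, and at equal total reads Slc38a2 changed sign, from -0.22 to 0.31.

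The make-up of the transporter transcripts differed between the groups. Summed over the 41 transporters, levels per kb of transcript were 1763 ± 24.4 in control and 7232 ± 1100 with DKK1 (SD, n = 3 each), and these transporters held 0.103% ± 0.0013 and 0.487% ± 0.047 of all normalized counts. In control a single gene, Slc38a2, supplied most of the sum per kb, with 62.3%, 63.4% and 61.6% in libraries 1 to 3. With DKK1 its share was 11.6%, 16.6% and 11.8%, and Slc3a2, a heavy chain and not a carrier by itself, led with 43.6%, 39.6% and 43.3%. The share of Slc38a1 was 0.392% to 0.487% in control and 11.7% to 12.9% with DKK1. The 4 leading genes were Slc38a2, Slc43a2, Slc3a2 and Slc38a10 in control, with 88.2% ± 0.362 of the sum, and Slc3a2, Slc43a2, Slc38a1 and Slc38a2 with DKK1, with 80.2% ± 1.81 (SD, n = 3 each).

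**Figure D3:**
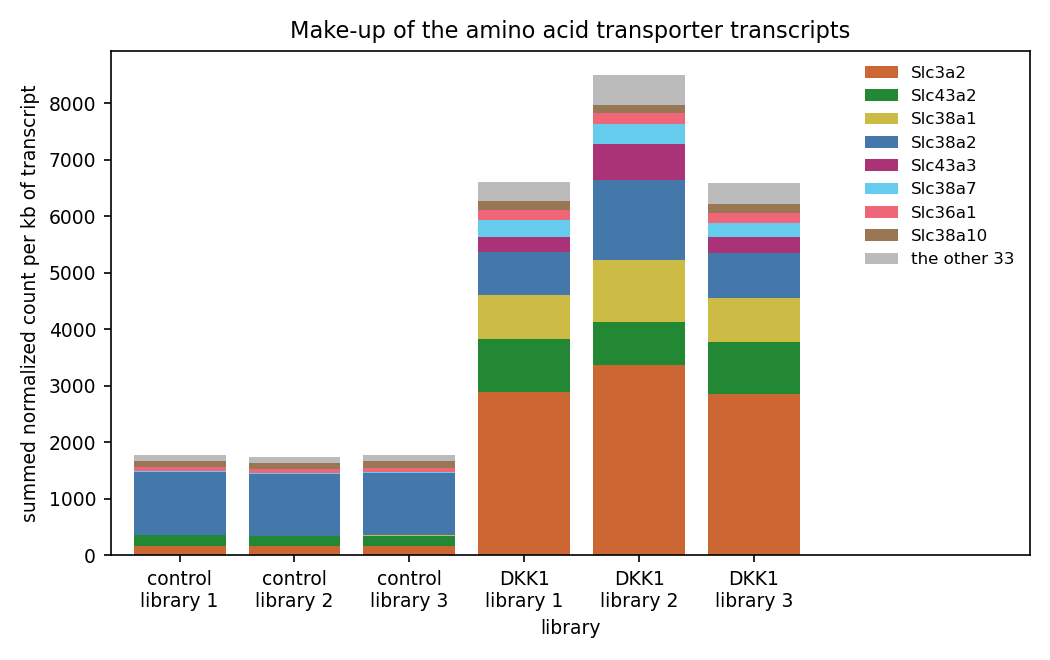
Summed normalized counts per kb of transcript of the 41 transporters in each library, with 8 genes in colour and the other 33 in grey. Slc38a2 filled 61.6% to 63.4% of the control bars, and Slc3a2 filled 39.6% to 43.6% of the DKK1 bars.

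Many of these genes were highest in DKK1 library 2. Of the 17 members with a group mean of at least 50, all of which reached that mean with DKK1, 13 were highest in library 2, against 44.3% of the 7637 tested genes at that level. Library 2 was over 1.5 times the mean of libraries 1 and 3 for 5 of them, against 4.74% of those genes: Slc1a5 (1.77 times), Slc38a2 (1.83), Slc7a5 (2.25), Slc43a3 (2.26) and Slc7a1 (4.51). The median ratio was 1.32 over the members and 1.02 over all genes at that level. No test was made of this difference, which concerns a single library.

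Some stress genes were also high in that library (chosen after their values were seen). Atf4, the transcription factor that amino acid shortage and ER stress switch on through translation, had normalized counts of 2038, 4299.6 and 2036 in DKK1 libraries 1 to 3, beside 1560.5 to 1696 in control. Trib3, one of its targets, had 64.1, 716 and 90.6, and Asns, the asparagine synthetase, had 67.8, 259.6 and 62.1. In library 2 these 3 genes thus stood at 2.11, 9.25 and 4.00 times the mean of the other DKK1 libraries. The same ratio was 2.36 for Ddit3 (CHOP), 2.94 for Atf5 and 3.39 for Sesn2. At 286 in library 2, Sesn2 was still below its control values of 1321 to 1401. Other genes known as ATF4 targets were not high there, with ratios of 0.974 for Slc7a11 and 0.881 for Shmt2. Globin transcripts were high there too among the DKK1 libraries, with 297, 582 and 117 for Hbb-bs in DKK1 libraries 1 to 3, beside 649 to 702 in control. Within the DKK1 group, the lowest depth coincided in a single library with high erythroid RNA and high values of these stress genes. Their part in the high transporter values was not tested.

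**Figure D4:**
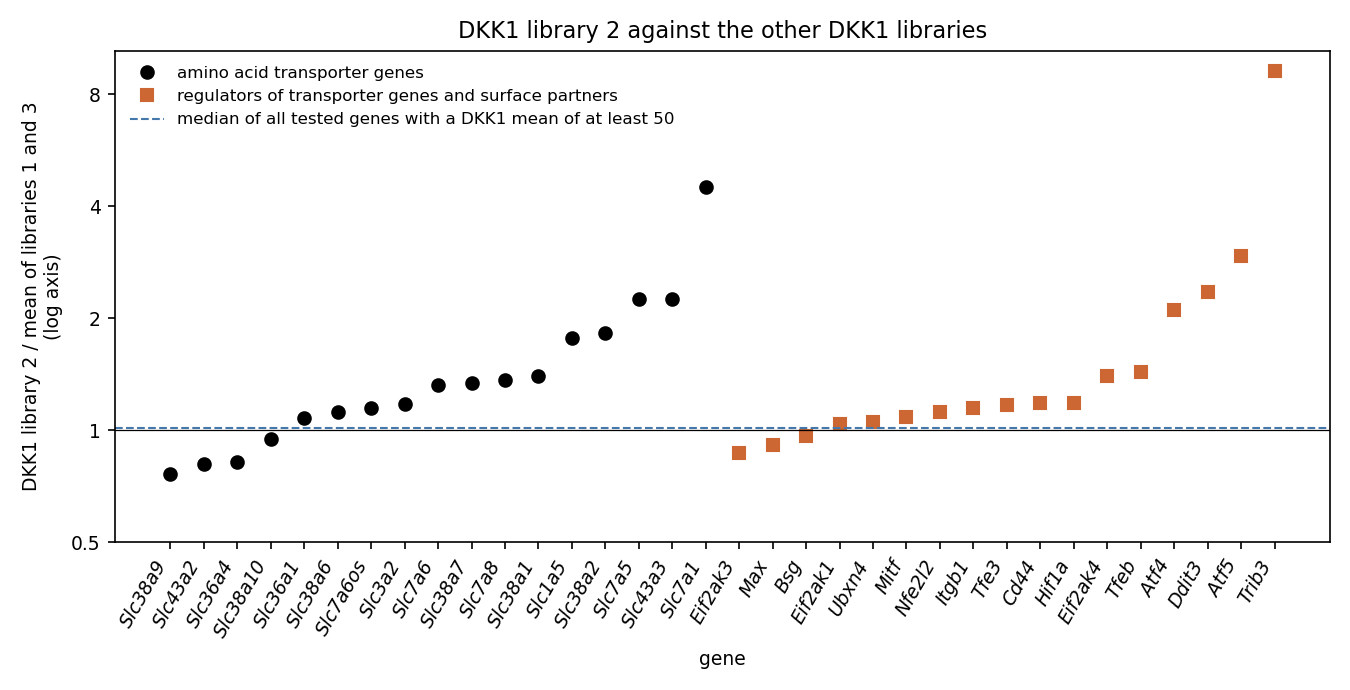
Ratio of DKK1 library 2 to the mean of DKK1 libraries 1 and 3 (log axis) for the 17 members with a group mean of at least 50 (black) and the 17 genes of the regulator list with a DKK1 mean of at least 50 (orange), with the median of all tested genes at that level as a dashed line at 1.02. Slc7a1 at 4.51 and Trib3 at 9.25 were the highest of the 2 sets.

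Other carriers of amino acids and peptides were taken from a list of 21 genes. Of these 15 were tested, 10 rose, 2 fell and 3 did not pass, with a median log2 change of 1.85. Over all tested genes 35.1% rose, 36.1% fell and the median was -0.03. Slc7a11, the cystine and glutamate exchanger, rose 13.7-fold, from a mean of 3730.0 ± 33.8 to 50943 ± 1152 (SD, n = 3 each; limma adjusted p = 2.11e-11). Slc15a3, a lysosomal carrier of histidine and peptides, rose 3.60-fold, from 3765 to 13573. Slc16a10 (TAT1, a facilitative carrier of aromatic amino acids) rose 8.79-fold, from 133 to 1170.1, and Slc6a12, a betaine and GABA carrier, rose 30.0-fold, from 27.3 to 819. Those that fell were Slc15a2 (PEPT2, a peptide importer), from 205 to 19.3, and Slc17a9, from 61.1 to 12.3. Slc17a9 is known as the vesicular carrier of ATP, not of amino acids.

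Genes of amino acid sensing upstream of mTORC1 moved in both directions, with more higher than lower. Over all tested genes 35.1% were higher and 36.1% lower. Of 35 listed genes 34 were tested, of which 22 rose, 7 fell and 5 did not pass. Their median log2 change was 0.94, beside -0.03 over all tested genes. Fnip2, a partner of folliculin that acts on the Rag GTPases, rose 9.48-fold, from 2633 ± 59.4 to 24960.1 ± 1861 (SD, n = 3 each; limma adjusted p = 2.47e-10). Tsc1, a subunit of the complex that restrains Rheb, rose 4.72-fold, from 206 to 973. Rragc, a Rag GTPase, rose 4.45-fold, from 726 to 3230.3, and Seh1l of the GATOR2 complex rose 5.76-fold, from 109 to 627. Those that fell include the leucine sensor Sesn2, from 1349.7 to 151, with its relatives Sesn1 (60.9 to 25.1) and Sesn3 (153 to 6.84). The log2 change of Sesn2 was -3.41 with all libraries and -3.996 without DKK1 library 2. That of Sesn3, -4.74 with all libraries, moved to -5.43 when DKK1 library 2 was left out and to -3.92 when DKK1 library 3 was. Also lower were Lamtor4 of the Ragulator complex (375 to 45.3), the GATOR1 anchor Kptn (92.9 to 53.5) and the S-adenosylmethionine sensor Bmt2 (512 to 305). Kptn and Bmt2 did not pass at equal total reads (limma adjusted p of 0.305 and 0.0512).

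Enzymes that use the carried amino acids were also split, with more higher than lower. Over all tested genes 35.1% were higher and 36.1% lower. Of 38 listed genes 32 were tested, of which 16 rose, 10 fell and 6 did not pass. Their median log2 change was 1.08, beside -0.03 over all tested genes. Nos2, which makes nitric oxide from arginine, rose 83.0-fold, from a mean of 8.87 to 736. Arg1, which splits arginine (chosen after its values were seen), had 0 reads in control and a mean of 58.9 with DKK1, at least 55.2-fold higher, while its relative Arg2 fell from 3492 to 1009. Glul, which makes glutamine, fell 20.8-fold, from 1058 to 50.9. Sat1, of polyamine breakdown, fell 6.56-fold, from 9936 to 1516, and the aspartate aminotransferase Got2 fell 4.77-fold, from 1015 to 213. Also lower were Glud1 (1541 to 653), Oat (531 to 348), Psph (21.2 to 6.88), Gpt2 (23.6 to 10.8) and Aldh18a1 (13.05 to 4.98). At equal total reads the list had 19 higher and 6 lower, and Oat, Gpt2 and Aldh18a1 did not pass. Aldh18a1 had a log2 change of -1.58, and of -2.26 without DKK1 library 2.

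In the list of regulators of transporter genes and their surface partners, 20 of 22 genes were tested, 12 rose and 8 fell. Shares over all tested genes were 35.1% higher and 36.1% lower. Itgb1, the beta-1 integrin chain that binds Slc3a2, rose 9.74-fold, from 587 to 5714. Cd44, a further membrane partner, fell 6.13-fold, from 16446 to 2681. The stress kinase Eif2ak3 (PERK) fell 34.4-fold, from 1821 to 52.9, and Max, the partner of Myc, fell 7.52-fold, from 3682 to 489.8. Nedd4l, a ubiquitin ligase of membrane carriers, fell from 379.6 to 35.5, and Hif1a from 3512 to 1943. Tfeb (647 to 437) and Tfe3 (961 to 666), factors of the E-box motif above, fell as well. Neither passed at equal total reads (limma adjusted p of 0.695 and 0.973). Their relative Mitf rose 2.41-fold, from 309 to 744 (limma adjusted p = 6.03e-07), and Myc rose from 3.48 to 27.1 (limma adjusted p = 0.000701). Mitf and Myc were chosen after their values were seen. Atf4 rose 1.70-fold by a narrow margin (log2 change 0.67, SE 0.26, limma adjusted p = 0.0468), and without DKK1 library 2 its change was 0.31. For Trib3 the log2 change was 2.19 (SE 0.79, limma adjusted p = 0.036), which moved to 1.12 when DKK1 library 2 was left out and to 2.85 when DKK1 library 1 was. Asns had a log2 change of 1.48 (SE 0.50, limma adjusted p = 0.0233), and of 0.82 without DKK1 library 2. These 3 calls are unstable: of 16 alternatives, that of Atf4 was lost in 10 (adjusted p up to 0.188), that of Trib3 in 8 (up to 0.156) and that of Asns in 6 (up to 0.0932), each time including the fits without control library 1, 2 or 3. By contrast, Atf5 (log2 change 4.38, limma adjusted p = 1.52e-05) and Ddit3 (1.61, limma adjusted p = 0.00137) kept their calls in all 16. Both were chosen after their values were seen.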

How the data were processed

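Per the file headers, the authors deposited a normalized count for each gene and library, here treated as a signal. The build was mm10, per the submitters' processing notes. Which aligner, counting tool, annotation and normalization were applied is not given in the sources used here. A further 3 columns match no sample and were not used. Reads could be recovered, since each value was a whole number of reads (100% within 0.001) times a constant of its library.

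Groups came from sample titles. The two-sided test was limma (3.58.1, under R 4.3.3, with trend and robust fitting) on log2(normalized count + 1), which understates changes of low genes. Its script was checked on simulated data. Folds are ratios of group means. Against 0 reads a floor of 3 reads over the group was used (a mean of 1.07 in control and 0.979 with DKK1). Levels between genes were compared per kb of the longest transcript in GENCODE M21, to which all 42 members matched by identifier without version.

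The members and lists were chosen with earlier results of these data known. Values in every library are given for tested members with a group mean of at least 50. From each list of other genes up to 4 of smallest adjusted p are named, with those that passed against the majority, except some that are not reported here. Alternatives were the replicate block, a pseudocount of 0.1 or 10, a filter of 10 in 3 libraries or none, scaling by median of ratios or to equal total reads, limma without trend and robust fitting, and leaving out each library. Added after seeing the data were edgeR 4.0.16 and DESeq2 1.42.0 on recovered reads, and leaving out Slc7a6os.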

Additional observations from a re-analysis of the deposited data

How the results depend on the processing

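The count of 19 higher members ranged from 18 to 20 when single libraries were left out. The count of 2 lower members was 1 with DESeq2, equal total reads, a filter of 10, a pseudocount of 0.1, or limma without trend and robust fitting, was 3 with no filter (Slc36a2 added), and ranged from 0 (without control library 3) to 2 when single libraries were left out, being 1 without control library 1 and 1 without DKK1 library 1. The 2 without DKK1 library 2 were Slc38a2 and Slc43a1. The members' median log2 change of 2.24 was 2.77 at equal total reads, 1.15 with no filter and 1.22 with a pseudocount of 10. At equal total reads the log2 change of Slc38a2 turned from -0.22 to 0.31. Of the 25 tested members 19 kept direction and call under all alternatives that gave them a value (16 at most), and Slc1a5, Slc7a3, Slc36a3, Slc38a2, Slc38a9 and Slc43a1 did not. The cause of these shifts was not tested.

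Same-numbered libraries of the 2 groups did not deviate together over all tested genes (correlations of -0.00517, 0.00659 and 0.0172). Not every library correlated best with its own number. Values this close to 0 cannot settle whether equal numbers share a mouse, dish or day, since sharing that touches few genes could leave them as low. With the replicate block the counts were again 19 higher and 2 lower, but Slc1a5 was gained (limma adjusted p = 0.0325) and Slc36a3 lost (0.0563). At these depths, members with a few reads could not be tested.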
